A study of Mus musculus with 6 samples.

Results

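Thoracic aortas of transgenic mice that express CaMKIIN, a peptide inhibitor of calcium/calmodulin-dependent kinase II (CaMKII), in smooth muscle only (TG SM-CaMKIIN, here TG) were compared with those of wild-type littermates (WT), all under infusion of angiotensin II (Ang-II). The comparison took 4 of the 6 Illumina expression BeadChips of the study, namely 2 TG Ang-II arrays and 2 WT Ang-II arrays, and was the only one with 2 arrays on both sides. All mice were on a C57 Bl/6 background and 12 weeks old when osmotic minipumps were implanted, which delivered 1.25 ug/kg/min Ang-II in 0.9% saline for 14 days, to 5 mice per group. The other 2 arrays, 1 of WT and 1 of TG mice infused with 0.9% saline, entered as levels only. RNA was pooled within a group. The titles number the Ang-II arrays as biological replicates, but nothing says which mice entered which array, so the p-values measure only the spread between arrays, which may be technical. The sources used here do not name the promoter that drives the transgene.

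CaMKII is activated by calcium-loaded calmodulin and can keep its activity after calcium falls, by phosphorylating itself. In arterial smooth muscle, Ang-II acts through the type 1 receptor, raises cytosolic calcium and drives contraction, growth and matrix production, and CaMKII is one of the kinases downstream of that calcium signal. A dissected aorta also holds endothelium, adventitial fibroblasts, immune cells and blood, and may carry fat, nerve, mesothelium or heart muscle from its surroundings.

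Between 34.0% and 35.5% of the 45281 probes were detected on an array, with a median of 41 to 43 beads per probe. A probe was kept if its detection p was below 0.01 on 2 or more of the 4 Ang-II arrays. This left 16127 probes, which stood for 9584 genes, each read by its kept probe of highest mean signal. Values are normalized log2 signals, and differences are TG minus WT on that log2 scale ± the standard error (SE) of the limma fit, with n = 2 arrays per group. Across the kept probes, which are not independent, the pair of WT arrays correlated with r = 0.991 and the pair of TG arrays with r = 0.990. Defining markers of the aorta were present in both genotypes. Of 8 smooth muscle markers, 7 were detected on both WT and 8 on both TG Ang-II arrays, as were 6 of 7 endothelial markers and all 6 adventitial fibroblast markers in both genotypes. Of the 2 Camk2n genes, which encode the natural CaMKII inhibitor proteins, Camk2n1 read 11.47 and 11.66 in WT Ang-II against 11.53 and 11.60 in TG Ang-II, and Camk2n2 read 8.74 and 8.78 against 8.82 and 8.69. The sources used here do not say whether transgene RNA would bind these probes, so the genotype labels were not checked by them.

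Under Ang-II, 1028 probes differed between TG and WT at an adjusted p under 0.05, which was 6.37% of those tested, with 517 higher (3.21%) and 511 lower (3.17%) in TG. By genes, 325 of 9584 were higher (3.39%) and 272 were lower (2.84%), together 6.23%. Most of the large differences lay on 1 side. Where a gene was not detected in its dim group, only a lower bound of its fold was counted. A fold of at least 4 was then reached by 41 called genes that were higher in TG and 4 that were lower, and 19 of the 41 were on the fixed lists of heart or skeletal muscle genes. A fold of at least 8 was reached by 19 called genes that were higher, 12 of them on those muscle lists, and by 0 that were lower. Both TG arrays lay on the same side of both WT arrays for all 597 called genes and for 53.3% of all genes measured. An exact permutation test of 2 against 2 arrays cannot go below a two-sided p of 0.333, so every call rests on limma's pooled estimate of the spread. Scaling the arrays to a common median in place of quantile normalization shifted the median difference of all probes from -0.01 to -0.14 and gave 466 probes higher and 1175 lower, so that 28.4% of calls were higher in place of 50.3%. Leaving out WT Ang-II array 1 or 2 left 216 or 243 probes called, and leaving out TG Ang-II array 1 or 2 left 681 or 689.

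**Figure D1:**
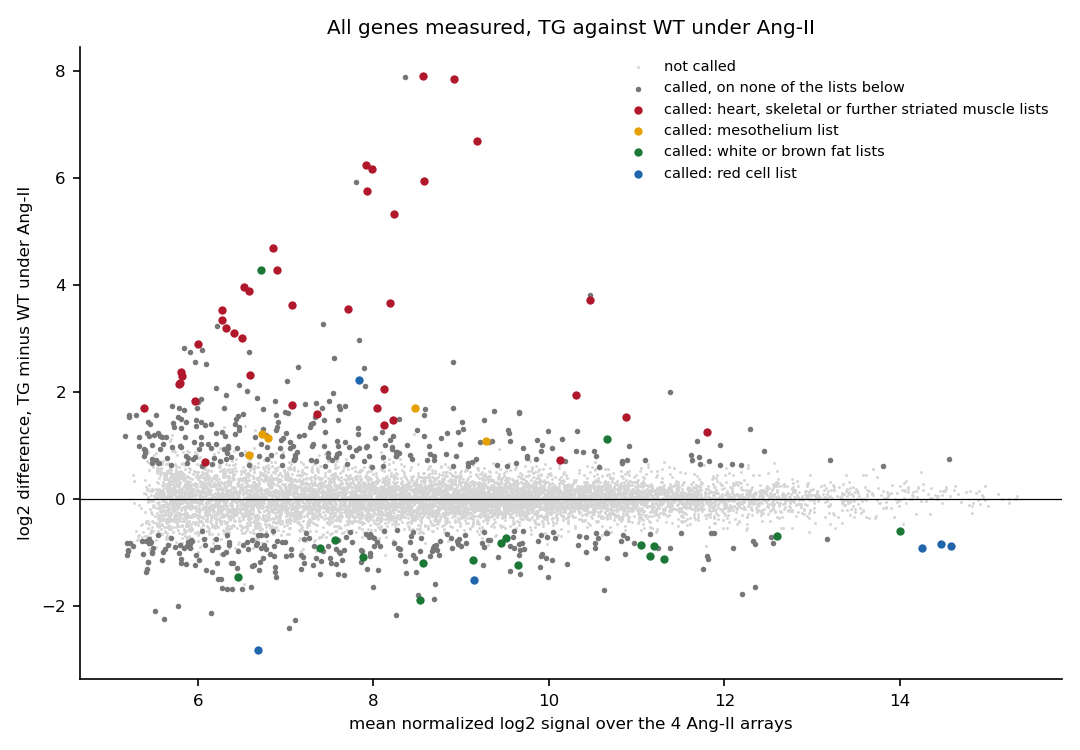
Each point is 1 of the genes measured, with the mean normalized log2 signal over the 4 Ang-II arrays on the horizontal axis and the log2 difference, TG minus WT under Ang-II, on the vertical axis. Called genes (adjusted p under 0.05) are dark or coloured. Differences are plotted as fitted, not at a bound, and 27 called genes are then at least 8-fold higher. Of these, 17 are heart or skeletal muscle genes, against 12 of 19 with undetected groups at their bound. Most called red cell and fat genes lie below 0.

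Heart muscle genes were the most different group. Of 41 listed genes 30 were measured, and 26 of these were higher in TG Ang-II and 0 lower, with a median fitted difference of 3.18 against 0.00 over all genes, or 2.41 with undetected members at their bound. A total of 14 of the 30 passed the detection filter through the TG arrays only and could therefore only be higher. Among the 14 that were detected on both WT arrays, 10 were higher and 0 lower, with a median of 1.35. The background share of genes higher in TG was 3.39%. Myoglobin (Mb), the oxygen store of striated muscle, read 5.88 and 5.78 on the WT Ang-II arrays and 12.56 and 12.49 on the TG Ang-II arrays, with 8.03 in WT saline and 8.31 in TG saline. Its difference was 6.70 ± 0.12 (adjusted p = 2.12e-05), and by its second probe, not detected in WT Ang-II, it was at least 22.3-fold higher. The saline arrays thus lay between the 2 Ang-II groups. Myl2 and Myl3, the ventricular myosin light chains, were not detected on either WT Ang-II array and were at least 124-fold and at least 155-fold higher in TG. Such bounds set the bright group against the lowest detected signal of the dim arrays, where a probe was not well above background. Csrp3, a Z-disc protein, was at least 44.3-fold higher by its brightest probe, and by its other probes, also undetected in WT Ang-II, at least 9.37-fold and at least 19.2-fold. Nppa, the atrial natriuretic peptide, read 4.50 and 4.52 in WT Ang-II against 9.30 and 9.11 in TG Ang-II and was at least 12.5-fold higher, while it read 7.67 in WT saline and 4.58 in TG saline. Cox6a2, the muscle form of a cytochrome oxidase subunit, read 6.03 and 5.17 against 11.52 and 11.58 (5.95 ± 0.28, adjusted p = 0.000400). The summed signal of the 38 listed heart genes with a probe was 11492 and 11452 on the WT Ang-II arrays and 58815 and 56521 on the TG Ang-II arrays. It was 18709 in WT saline and 18030 in TG saline. In bulk RNA, more cells of a type and more RNA per cell cannot be told apart.

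Skeletal muscle genes did not move as a block. Only 6 of 18 listed genes were measured, with 2 higher and 0 lower, against 3.39% of all genes higher. Of the 2, Acta1 passed the detection filter through the TG arrays only and could only be higher. Acta1, the skeletal alpha-actin that heart muscle also expresses, was at least 45.1-fold higher in TG Ang-II, and Eno3, muscle enolase, was higher by 1.38 ± 0.12 (adjusted p = 0.00370). Of 4 defining skeletal markers, Acta1 was detected on both TG Ang-II arrays, and Mylpf, Tnnt3 and Atp2a1 were detected on none of the 4 arrays. A further list of 19 striated muscle genes, chosen after the values were seen, had 14 measured, 12 higher and 0 lower, and 8 of the 14 had passed the filter through the TG arrays only. These included Rpl3l, a striated muscle ribosomal protein, at least 5.10-fold higher, and Eef1a2, the muscle and neuron elongation factor, which differed by 3.54 ± 0.18. Of the 20 calls on named striated genes, 18 held whichever Ang-II array was left out. Perm1 lost its call without WT Ang-II array 1 (adjusted p = 0.0751), TG Ang-II array 1 (0.0866) or TG Ang-II array 2 (0.0593), and Srl without WT Ang-II array 2 (0.0558).

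**Figure D2:**
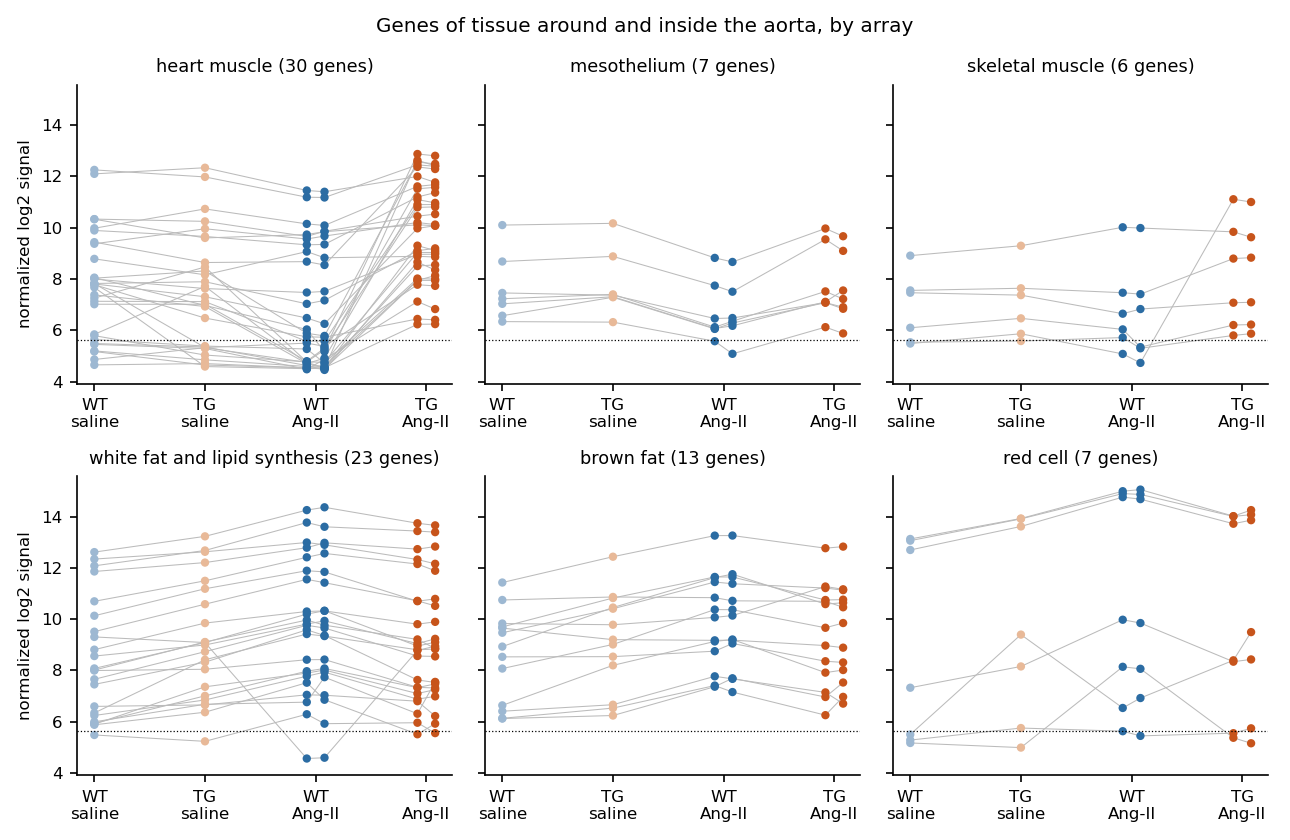
Normalized log2 signal of each measured member of 6 tissue lists on the 6 arrays, with thin lines joining the values of a gene and points coloured by group; the dotted line is the mean of the arrays' lowest detected values (5.63). The summed heart signal is lowest in WT Ang-II and highest in TG Ang-II, while the white fat, brown fat and red cell sums are highest in WT Ang-II.

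Mesothelium, the layer that lines the body cavities, showed the same direction at a smaller size. Of 9 listed genes 7 were measured, 5 were higher in TG and 0 lower, with a median of 1.07. Over all genes 3.39% were higher. Lrrn4, which was not called, passed the detection filter through the TG arrays only. Upk1b, a uroplakin, read 7.74 and 7.50 in WT Ang-II against 9.55 and 9.10 in TG Ang-II, a difference of 1.70 ± 0.19 (adjusted p = 0.00777). Upk3b read 8.82 and 8.66 against 9.97 and 9.67, with differences of 1.07, 1.06 and 0.90 by its 3 probes, and stood at 10.10 in WT saline and 10.17 in TG saline. Mesothelin (Msln, 1.21) and the keratins Krt8 (1.13) and Krt7 (0.82) were also higher. The summed signal was 1030 and 964 on the WT Ang-II arrays, 2443 and 2019 on the TG Ang-II arrays, and 2174 and 2381 on the WT and TG saline arrays, so WT Ang-II was the low group. Among 5 measured genes of Schwann cells and nerve, Mbp, myelin basic protein, was called higher (0.97 ± 0.16), but its other probe differed by -0.39, and averaging both ended the call (adjusted p = 0.212). Lymphocyte genes gave 2 measured members of 21, neither called. All 6 calls named here ended without WT Ang-II array 1 (adjusted p from 0.0574 to 0.180) or array 2 (0.0658 to 0.108), and 2 ended without TG Ang-II array 1 (0.0673 to 0.0972) or array 2 (0.0554 to 0.0675). With no detection filter 5 ended (0.0606 to 0.0859), Upk1b being the exception.

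Fat genes went the other way. Of 23 measured genes of white fat and lipid synthesis, 13 were lower in TG Ang-II and 1 was higher, with a median of -0.70, against a background of 2.84% lower. Elovl6, a fatty acid elongase, read 9.59 and 9.37 in WT Ang-II against 7.63 and 7.53 in TG Ang-II (-1.89 ± 0.14, adjusted p = 0.00195), with 7.46 in WT saline and 8.32 in TG saline. Fatty acid synthase (Fasn, -1.47), the acyltransferase Agpat2 (-1.24 and -1.71 by 2 probes) and glycerol-3-phosphate dehydrogenase (Gpd1, -1.15) were lower as well. The member that was higher was Me1, malic enzyme, which rested on a single probe described below. Me1 passed the detection filter through the TG arrays only and could only be higher. Of 13 measured brown fat genes 3 were lower, namely Slc27a2, a fatty acid transporter (-1.20), Ucp1, the uncoupling protein of brown fat (-1.07 ± 0.13, adjusted p = 0.00901), and Cidea, a lipid droplet protein (-0.89). Ucp1 read 11.62 and 11.76 against 10.59 and 10.64, with 8.93 in WT saline and 10.46 in TG saline. The brown fat member that was higher, Fabp3 (1.11), is also the fatty acid binding protein of heart. Summed signals of the white fat list were 69443 and 70136 in WT Ang-II, 49654 and 47845 in TG Ang-II, 26343 in WT saline and 39311 in TG saline, so that both Ang-II groups lay above both saline arrays.

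A list of sterol and fatty acid synthesis genes under SREBP, the transcription factors of lipid synthesis, was chosen after the values were seen. Of its 11 measured members 3 were lower and 0 higher, against 2.84% of all genes lower. Of the 3, Nsdhl passed the detection filter through the WT arrays only and could only be lower. Srebf1, which encodes SREBP-1, read 8.61 and 8.13 in WT Ang-II against 6.98 and 6.92 in TG Ang-II (-1.42 ± 0.18, adjusted p = 0.0125), and the acetyl-CoA synthetase Acss2 differed by -1.23. The sterol enzyme Nsdhl, not detected in TG Ang-II, was at least 1.65-fold lower, and 1 of its 3 other probes was not called. Insig1, which holds SREBP back, was not called by its brightest probe (-0.87, adjusted p = 0.0709), but both of its other probes were lower. The sterol enzymes Cyp51 (-0.59), Sqle (-0.21) and Fdps (-0.07) and the regulator Srebf2 (0.21) were not called. The white fat sum fell beside these genes, and its part in them was not tested. Of the 11 calls named for fat and lipid synthesis, 10 ended without WT Ang-II array 1 (adjusted p from 0.0564 to 0.127), 8 without array 2 (0.0531 to 0.0963), 1 without TG Ang-II array 1 (0.0740) and 1 without TG Ang-II array 2 (0.0593), and Elovl6 held throughout. Fasn, Nsdhl and Srebf1 lost theirs with no detection filter (0.0532 to 0.116), and Fasn also when tested against a fold of 1.2 (0.0587).

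Red cell genes were also lower in TG Ang-II, with 5 lower and 1 higher of 7 measured and a median of -0.89. The background shares were 2.84% lower and 3.39% higher. Of the 5, Slc4a1 passed the detection filter through the WT arrays only and could only be lower. Slc4a1, the anion exchanger of the red cell membrane, read 8.14 and 8.07 in WT Ang-II and was not detected in TG Ang-II (5.37 and 5.16), at least 5.34-fold lower. Alas2, the first enzyme of erythroid haem synthesis, read 9.98 and 9.85 against 8.34 and 8.43 (-1.53 ± 0.13, adjusted p = 0.00322). The globins Hba-a1 (-0.84), Hbb-bt (-0.93) and Hbb-bs (-0.89) had the highest signals of the list and are near-identical in sequence within a family, so their probes may share targets. The other probes of Hbb-bt and Hbb-bs differed by between -0.92 and -1.94. One globin, Hbb-b2, was higher, with 6.54 and 6.93 in WT Ang-II against 8.40 and 9.50 in TG Ang-II, and it also parted the saline arrays, with 5.50 in WT and 9.40 in TG. The summed red cell signal was 92630 and 91839 in WT Ang-II, 47579 and 53079 in TG Ang-II, 24616 in WT saline and 44812 in TG saline. Calls on Hbb-bt, Hbb-bs and Hbb-b2 ended without WT Ang-II array 1 (adjusted p from 0.113 to 0.159) or array 2 (0.0835 to 0.120), and 2 of them without TG Ang-II array 1 (0.0515 to 0.0686), while Slc4a1 and Alas2 held. Hbb-b2 and Hbb-bs lost theirs with no detection filter (0.0628 to 0.106).

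Genes on the lists of the vessel wall and of cell processes, and on no tissue list, formed a set of 622 measured genes. Of these 43 were higher and 45 lower in TG Ang-II, 14.1% in all against 6.23% of all genes, with a median of 0.00. Members named as not called, and members that complete a small count, were partly chosen after their values were seen. These lists were chosen with earlier results of the data known, so the higher share is no independent evidence. In each of these lists at most 2 genes had passed the detection filter through 1 genotype only, and their direction was fixed by that. Differences that rest on a single probe, described below, were not removed from the set. Apart from Sspn, 1 of these, the differences were smaller in size than the fitted heart muscle median of 3.18. Most lists had a median near 0. The share over all genes that stands beside each list count below was 3.39% higher and 2.84% lower.

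**Figure D3:**
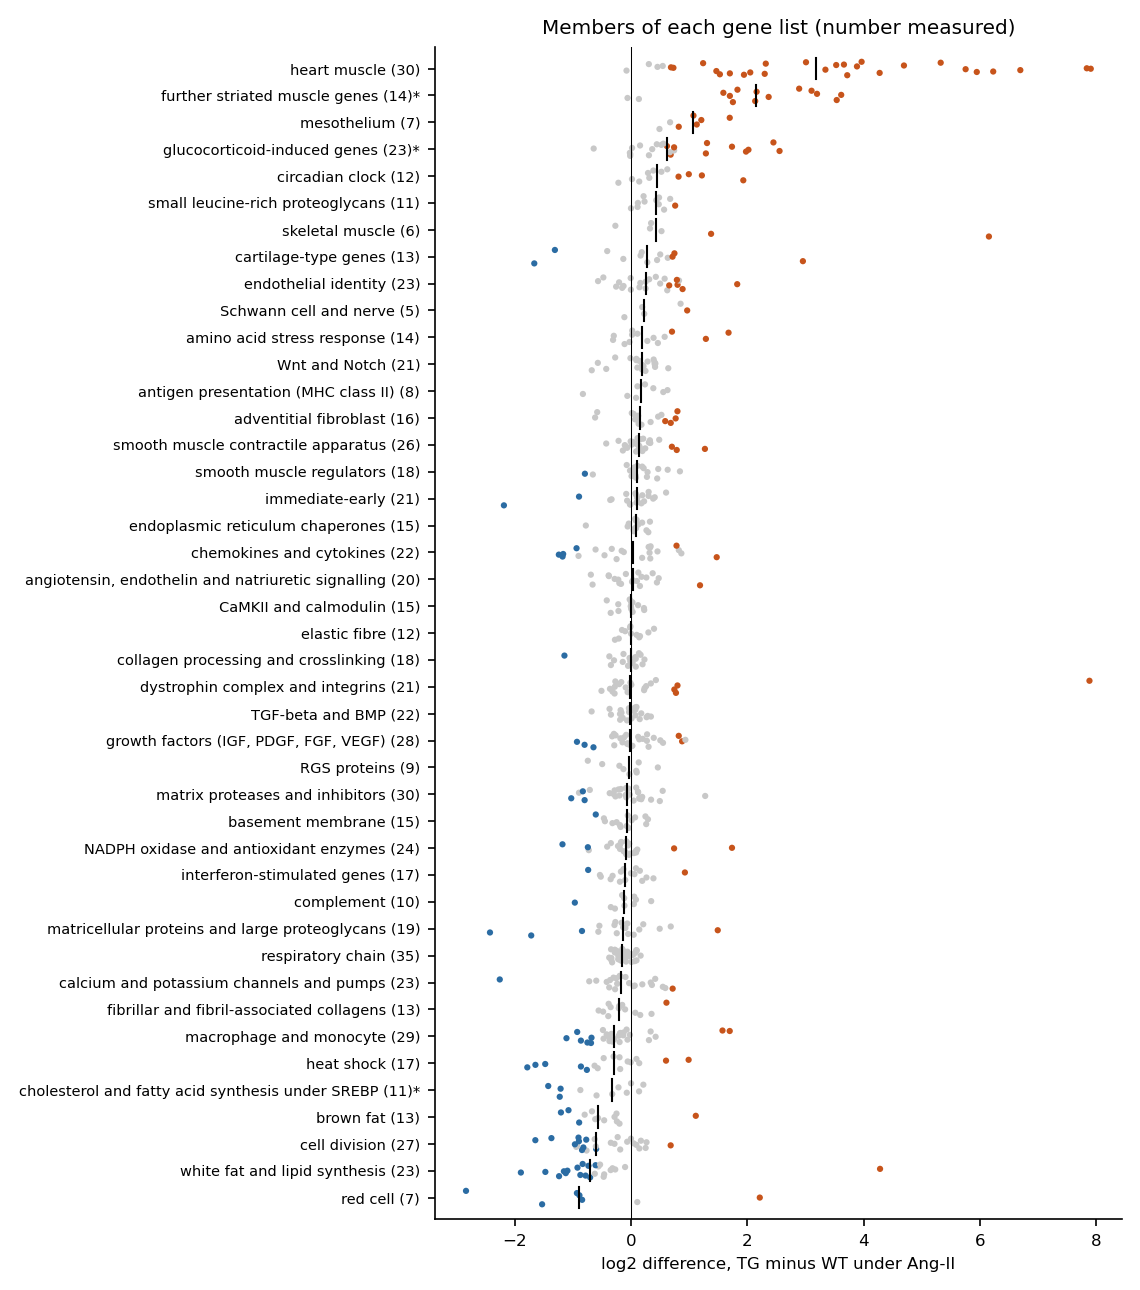
Log2 difference, TG minus WT under Ang-II, of every measured member of each list with at least 5 measured genes (number in brackets), with members higher in orange, lower in blue and not called in grey. Black bars mark list medians, which run from 3.18 for heart muscle to -0.89 for red cells, and asterisks mark lists chosen after the values were seen.

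Within the CaMKII pathway itself, 0 of 15 measured genes of the kinase, calmodulin and calcineurin were called. The kinase subunits Camk2b (0.23 ± 0.14, adjusted p = 0.396), Camk2d (0.00 ± 0.13) and Camk2g (0.22 ± 0.13, adjusted p = 0.366) did not pass by their brightest probes. One of 5 kept Camk2d probes was lower (-0.79, adjusted p = 0.0486). Of 20 measured genes of angiotensin, endothelin and natriuretic peptide signalling, 1 was called, which is 5% and near the 6.23% of all genes. That gene was Agtr1a, the main angiotensin II receptor of mouse arteries, which read 6.69 and 6.53 in WT Ang-II against 7.57 and 8.03 in TG Ang-II, a difference of 1.19 ± 0.18 (adjusted p = 0.0213). Its saline levels were 6.07 in WT and 7.77 in TG, so the TG arrays were the higher ones under both infusions. None of 9 RGS genes, which encode proteins that shut off G protein signals, was called. Rgs7bp (-0.74, adjusted p = 0.0583) and Rgs4 (-0.50, adjusted p = 0.0999) had the largest differences.

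The contractile apparatus of smooth muscle had 3 members higher and 0 lower of 26 measured, with a median of 0.14. Desmin (Des), the intermediate filament of muscle, read 9.27 and 9.44 in WT Ang-II against 10.57 and 10.69 in TG Ang-II (1.27 ± 0.13, adjusted p = 0.00660), with 10.25 and 10.67 on the WT and TG saline arrays. Leiomodin (Lmod1), an actin nucleator of smooth muscle, read 11.55 and 11.39 against 12.22 and 12.13 (0.70 ± 0.13), and calponin (Cnn1), an actin-binding regulator, read 7.10 and 7.26 against 7.82 and 8.12 (0.79 ± 0.16). WT Ang-II was the low group of the 4 for these genes. Other well-known contractile genes were not called, with differences of 0.14 for Myh11, 0.09 for Acta2 and 0.49 for Tagln. Heart muscle also expresses Des, and the summed heart signal above moved with it. Its part in these values was not tested. Among 18 regulators of the smooth muscle state, Hey2, a Notch target of arterial smooth muscle, was lower (-0.79 ± 0.13), while its second probe (-0.56) was not called, and Myocd (0.63) and Klf4 (0.28) were not called.

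Channels and pumps gave 1 gene higher and 1 lower of 23, which is 8.7% called and near the 6.23% of all genes. Kcnq5, a voltage-gated potassium channel of arterial smooth muscle, read 6.78 and 6.69 in WT Ang-II and was not detected in TG Ang-II or in saline, at least 2.07-fold lower, by a single probe. Atp2a2, the SERCA2 calcium pump of smooth muscle and heart, was higher by 0.72 ± 0.14, but its other probes differed by 0.45 and -0.07 and were not called. Of 21 measured genes of the dystrophin complex and integrins 4 were higher, namely the integrin subunits Itgb4 (0.80, other probe 0.58 and not called) and Itga5 (0.75 and 0.94 by 2 probes), dystrobrevin (Dtna, 0.77, not called by its 3 other probes) and Sspn, described below. Of the 10 calls named for muscle, receptor, channel and integrin genes, 9 ended without WT Ang-II array 1 (adjusted p from 0.0633 to 0.221), 8 without array 2 (0.101 to 0.162), 4 without TG Ang-II array 1 (0.0568 to 0.112) and 7 without TG Ang-II array 2 (0.0639 to 0.124), and Kcnq5 held. With no detection filter 8 ended (0.0564 to 0.113, Des and Kcnq5 excepted), and Atp2a2 and Dtna ended when probes of a gene were averaged (0.140 to 0.330).

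Of 19 matricellular proteins and large proteoglycans 3 were lower and 1 higher in TG Ang-II, with a median of -0.14. The largest fall was that of Cemip, a hyaluronan-degrading protein, which read 8.26 and 8.25 in WT Ang-II against 5.82 and 5.84 in TG Ang-II, a 5.37-fold difference (-2.42 ± 0.12, adjusted p = 0.000466). In saline it read 4.58 in WT and 4.53 in TG, so the WT Ang-II arrays stood above all the others. Ccn1, a matricellular protein also called Cyr61, read 11.37 and 11.61 against 9.79 and 9.76 (-1.72 ± 0.14), and its other probes differed by -1.47 and -1.58. With 11.22 and 11.08 in saline, the TG Ang-II arrays were the low ones for Ccn1. Fibronectin (Fn1) read 12.78 and 12.76 against 11.97 and 11.89 (-0.84 ± 0.12), though its other probe (-0.55) was not called. Hyaluronan synthase 1 (Has1) was higher, with 5.86 and 5.51 against 7.38 and 6.98 (1.49 ± 0.20). Plod2, the lysyl hydroxylase that sets collagen crosslinks, was lower by -1.14 ± 0.13 and by -1.45 on its other probe, as the only called member of 18 collagen processing genes.

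Among 13 measured fibrillar and fibril-associated collagens, Col8a2 was called (0.61 ± 0.12), and its other probe (-0.16) was not. Col1a1 (-0.48, adjusted p = 0.0875) and Col1a2 (-0.56, adjusted p = 0.0739) were not called. Of 15 basement membrane genes Nid2, nidogen 2, was lower (-0.61), and of 12 elastic fibre genes 0 were called, with the largest differences in Mfap4 (0.40) and Ltbp4 (0.30). The 11 small leucine-rich proteoglycans, which regulate collagen fibrils, had 1 called member, Epyc (0.76). Of the 11, 10 had a positive difference and Bgn one of 0.00, with a median of 0.44. Of 30 matrix proteases and inhibitors 3 were lower, namely stromelysin 1 (Mmp3), with 11.40 and 11.38 against 10.54 and 10.58 (-0.83 ± 0.12, and -0.96 and -0.91 by its other probes), and the aggrecanase family members Adamts12 (-0.80) and Adamts9 (-1.03, other probe -0.10). Col8a2 and Adamts9 ended when probes of a gene were averaged (adjusted p from 0.0598 to 0.418). With no detection filter Adamts12, Col8a2, Epyc, Has1 and Nid2 ended (0.0578 to 0.0979). Against a fold of 1.2, Adamts12, Col8a2, Epyc, Fn1, Mmp3 and Nid2 ended (0.0516 to 0.232). Col8a2 and Nid2 ended with the replicate block (0.0551 to 0.0580), and Epyc without background correction (0.0554). Of the 11 matrix calls named, 9 ended without WT Ang-II array 1 (0.0596 to 0.226), 9 without array 2 (0.0661 to 0.163), 4 without TG Ang-II array 1 (0.0589 to 0.135) and 6 without TG Ang-II array 2 (0.0513 to 0.147), and Cemip and Ccn1 held.

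Cartilage-type genes, which arteries express as they stiffen or calcify, had 3 members higher and 2 lower of 13. Chondroadherin (Chad), a cartilage matrix protein, read 6.46 and 6.26 in WT Ang-II against 9.25 and 9.39 in TG Ang-II (2.96 ± 0.14, adjusted p = 0.000400), and the saline arrays read 6.84 in WT and 9.11 in TG. Aggrecan (Acan), the large proteoglycan of cartilage, read 7.08 and 7.12 in WT Ang-II and was not detected in TG Ang-II, at least 2.67-fold lower, with saline levels of 6.90 in WT and 4.82 in TG. Both genes therefore parted the genotypes under either infusion, in opposite directions. Osteoprotegerin (Tnfrsf11b), a decoy receptor of RANKL, read 12.53 and 12.29 against 11.25 and 10.95 (-1.31 ± 0.16). Matn4 (0.75) and Cytl1 (0.71 and 0.61 by 2 probes) were higher.

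Growth factor genes gave 2 higher and 3 lower of 28. Igfbp2, a binding protein of insulin-like growth factors, was lower by -0.93 and by -1.42 on its other probe, and Igfbp3, another of that family, was higher by 0.88 ± 0.13. The fibroblast growth factor receptor Fgfr2 was lower by -0.80 and -0.90 on 2 probes, with saline levels of 13.05 in WT and 11.94 in TG. Ptn, the growth factor pleiotrophin, was higher (0.82), and Angpt2, a vessel-destabilizing ligand of the Tie2 receptor, was lower (-0.64, other probe -0.93 and not called). Genes of TGF-beta and BMP signalling had 0 called of 22, among them Smad6, which was not detected in TG Ang-II, and Tgfbi (-0.37). Those of Wnt and Notch signalling had 0 called of 21 by their brightest kept probes. Single probes of 2 Wnt pathway genes were called, but the other kept probe of each disagreed. The Sfrp1 probe was higher (2.38 ± 0.13, adjusted p = 0.000731), with 7.81 and 10.29 in WT and TG saline. The Lrp6 probe, not detected in TG Ang-II, was at least 2.89-fold lower (adjusted p = 0.00121). Of the 10 calls named for cartilage and growth factor genes, 8 ended without WT Ang-II array 1 (adjusted p from 0.0901 to 0.224), 8 without array 2 (0.0596 to 0.164), 5 without TG Ang-II array 1 (0.0752 to 0.108) and 5 without TG Ang-II array 2 (0.0506 to 0.152), and Chad and Acan held. Angpt2, Cytl1, Fgfr2, Matn4 and Ptn ended with no detection filter (0.0633 to 0.103).

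**Figure D4:**
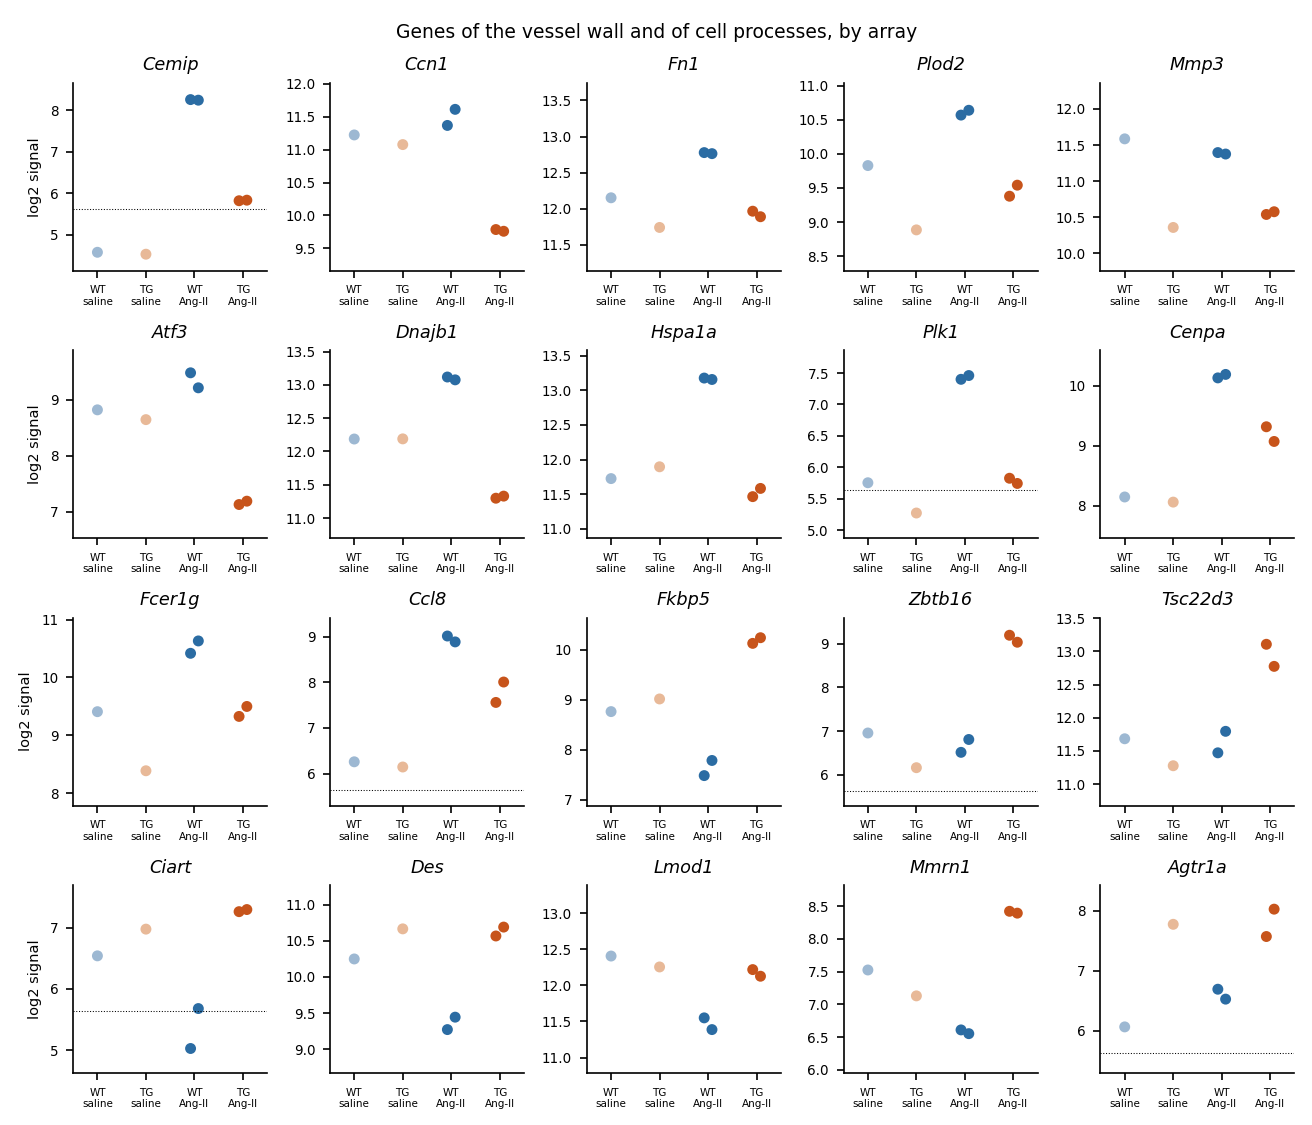
Normalized log2 signal of 20 genes of the vessel wall and of cell processes, with 1 point per array and groups on the horizontal axis; scales differ between panels, and the dotted line is the mean of the arrays' lowest detected values (5.63). The WT Ang-II arrays stand highest for Cemip, Dnajb1 and Hspa1a, the TG Ang-II arrays highest for Fkbp5 and Zbtb16.

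Among cell types of the wall, 5 of 23 endothelial genes were higher in TG Ang-II and 0 lower, with a median of 0.25. For this list and the fibroblast list below, the background share higher was 3.39%. The median saline difference of the endothelial list was larger, at 0.64, from 1 array per genotype and untested. Its summed signal peaked on the TG saline array (33017), against 22639 for WT saline. TG Ang-II arrays gave 26170 and 25574, and WT Ang-II arrays 23593 and 22226. Mmrn1, multimerin 1, a protein of lymphatic endothelium and platelets, read 6.61 and 6.55 in WT Ang-II against 8.42 and 8.39 in TG Ang-II (1.83 ± 0.12, adjusted p = 0.00146). The tight junction protein Cldn5 (0.89), the endothelial transcription factor Sox18 (0.79), the lymphatic hyaluronan receptor Lyve1 (0.80) and the adhesion molecule Icam2 (0.66) were higher too. On the saline arrays Cldn5, Sox18 and Icam2 also read higher in TG, while Mmrn1 and Lyve1 read lower. General endothelial markers differed less, with 0.00 for Cdh5, 0.50 for Pecam1 and 0.43 for Vwf, none of them called. Of 16 adventitial fibroblast genes 4 were higher and 0 lower, namely Tcf21 (0.80), Gfpt2 (0.77), Clec3b (0.68) and Dpp4 (0.59), while the defining markers Pdgfra (0.12) and Dpt (0.12) were not called. All of these calls except that of Mmrn1 ended with any 1 Ang-II array left out (adjusted p from 0.0515 to 0.224) and with no detection filter (0.0798 to 0.122). Under median scaling Clec3b, Dpp4, Icam2 and Tcf21 ended (0.0504 to 0.0800).

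Of 29 measured macrophage genes 6 were lower and 2 higher in TG Ang-II, with a median of -0.28, or -0.21 with an undetected member at its bound, and 24 of the 29 had a negative difference. Fcer1g, the shared gamma chain of Fc receptors, read 10.42 and 10.63 in WT Ang-II against 9.33 and 9.50 in TG Ang-II (-1.11 ± 0.14, adjusted p = 0.0124), with 9.41 and 8.39 in WT and TG saline. The macrophage membrane protein Ms4a7 (-0.92) and the endotoxin co-receptor Cd14 (-0.86) were lower as well. The members that were higher were S100a8 (1.70 ± 0.14) and S100a9 (1.57 ± 0.19), the calprotectin pair of neutrophils and monocytes, which lay between 5.31 and 5.95 in WT Ang-II and between 7.11 and 7.44 in TG Ang-II. Summed over 5 defining macrophage markers the signal was 5694 and 5323 in WT Ang-II, 4151 and 4353 in TG Ang-II, and 2565 and 2196 in WT and TG saline.

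Of 22 chemokine and cytokine genes 4 were lower and 2 higher. The monocyte attractants Ccl8 and Ccl7 (7.25 and 7.27 against 5.76 and 6.28) differed by -1.17 ± 0.18 and -1.24 ± 0.19, though the other probe of Ccl7 (-0.53, adjusted p = 0.0984) was not called. Ccl4 was at least 1.26-fold lower, and interleukin 1 beta (Il1b) differed by -0.94. Ccl21a, the lymph node chemokine of lymphatic endothelium, was higher, with 8.51 and 8.54 against 10.10 and 9.90 (1.47 ± 0.13, adjusted p = 0.00420), and so was the platelet chemokine Ppbp (0.78, other probe 0.82 and not called). Of 10 complement genes C7 was lower (-0.97, other probe -1.07 and not called), of 17 interferon-stimulated genes Mx2 was at least 1.38-fold higher and Rsad2 lower (-0.74), and of 8 MHC class II genes 0 were called. Among 24 genes of NADPH oxidase and antioxidant enzymes the phagocyte oxidase parts Rac2 (at least 1.26-fold) and Ncf4 (-0.74) were lower, and 2 metallothioneins, given below, were higher, while Nox4 (-0.41), the main oxidase of smooth muscle, was not called. The macrophage markers moved with these phagocyte and chemokine genes, and their part in them was not tested. Of the 15 immune calls named with a leave-out check, 12 ended without WT Ang-II array 1 (adjusted p from 0.0659 to 0.142), 13 without array 2 (0.0596 to 0.160), 3 without TG Ang-II array 1 (0.0787 to 0.0806) and 4 without TG Ang-II array 2 (0.0581 to 0.112), and S100a8 and Ccl21a held. With no detection filter Ccl7, Ccl8, Il1b, Mx2, Ncf4 and Rsad2 ended (0.0558 to 0.0879).

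In the heat shock response, heat shock factor 1 binds repeated GAA units and drives chaperone genes. Of 17 measured members 5 were lower and 2 higher in TG Ang-II, with a median of -0.30. Dnajb1, the HSP40 co-chaperone, read 13.12 and 13.08 in WT Ang-II against 11.30 and 11.33 in TG Ang-II (-1.78 ± 0.12, adjusted p = 0.00155), with 12.19 on both saline arrays. The inducible HSP70 genes Hspa1a (13.18 and 13.16 against 11.46 and 11.58) and Hspa1b (10.48 and 10.97 against 9.16 and 9.34) differed by -1.64 ± 0.12 and -1.47 ± 0.19, and by -1.73 and -0.94 on their other probes. The co-chaperones Dnajb4 (-0.86) and Bag3 (-0.76) were lower too, and the steady-state chaperone Hspa8 (0.00) and Hsp90aa1 (-0.63) were not called. The 2 members that were higher, Hspb7 (0.99) and Hspb6 (0.60), are small heat shock proteins that heart muscle expresses, and the heart sum moved with them; its part was not tested. Hspa1a and Hspa1b are near-identical genes, so their probes may share targets, and 296 of 300 promoter bases are the same. The promoter of Hspa1a, from 250 bases before to 50 after the start (chr17:34972107-34972406, minus strand, GRCm38.p6, from RefSeq), is shown for the repeated unit, with the match to GAANNTTC, searched on both strands, in capitals.
Hspa1a: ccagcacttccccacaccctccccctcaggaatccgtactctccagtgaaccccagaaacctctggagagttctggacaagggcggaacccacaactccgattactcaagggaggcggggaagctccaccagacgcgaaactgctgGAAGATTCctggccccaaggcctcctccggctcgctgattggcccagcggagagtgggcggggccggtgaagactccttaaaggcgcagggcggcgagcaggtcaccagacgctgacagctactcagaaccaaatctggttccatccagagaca
The motif was found in the promoters of 3 of the 5 members that were lower (Bag3, Hspa1a and Hspa1b) and in 1 of the 2 that were higher (Hspb6). It was also found in 6 of 7 not called with a promoter entry, and in 9.04% of all 27025 genes with an entry. A gene counted if any of its promoters matched. A longer heat shock element, with a further GAA unit and overlapping the first, was found in 0 of the 5. It was found in 3 of the 7 (Hspd1, Hspe1 and Hsph1) and in 0.662% of all genes with an entry. A match describes these letters only.

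Of 21 immediate-early genes, which respond within minutes to a stimulus or to tissue handling, 2 were lower and 0 higher. Atf3, a stress-induced transcription factor, read 9.48 and 9.21 in WT Ang-II against 7.13 and 7.19 in TG Ang-II, a 4.55-fold difference (-2.19 ± 0.14, adjusted p = 0.00146), with 8.82 and 8.64 in WT and TG saline. Jun was lower by -0.89 ± 0.15. Fos (-0.07), Egr1 (0.10) and Junb (0.30) were not called, so most of the list was not called. Genes of the endoplasmic reticulum chaperones had 0 called of 15, with Hyou1 (-0.78, adjusted p = 0.0677) the largest difference, and those of the respiratory chain had 0 called of 35, of which 27 had a negative difference and a median of -0.15. Atf3, Dnajb1 and Hspa1a held with each array left out. Of the 7 stress calls checked, which also hold Jun, Hspa1b, Dnajb4 and Hspb7, 3 ended without WT Ang-II array 1 (0.0705 to 0.120), 4 without array 2 (0.0601 to 0.142), 2 without TG Ang-II array 1 (0.0838 to 0.0855) and 1 without TG Ang-II array 2 (0.0901). Dnajb4, Hspa1b and Jun ended with no detection filter (0.0569 to 0.0986).

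Genes known to be induced by glucocorticoids, the adrenal steroid hormones, were taken as a list only after some of these rises had been seen, so the counts are a description. Of 23 measured members 10 were higher and 0 lower, against a background of 3.39% higher, with a median of 0.62. The summed signal was 59620 and 60970 in WT Ang-II, 91557 and 87014 in TG Ang-II, 58436 in WT saline and 61256 in TG saline. Fkbp5, a co-chaperone of the glucocorticoid receptor, read 7.48 and 7.78 in WT Ang-II against 10.13 and 10.24 in TG Ang-II, a 5.88-fold difference (2.56 ± 0.15, adjusted p = 0.00103), with 8.76 and 9.02 in WT and TG saline. Zbtb16, the transcription factor PLZF, read 6.52 and 6.81 against 9.19 and 9.03 (2.45 ± 0.15), with 6.96 and 6.17 in saline, and Tsc22d3, the leucine zipper protein GILZ, read 11.47 and 11.80 against 13.11 and 12.78 (1.31 ± 0.18, other probe 1.48). The TG Ang-II arrays were thus the highest of all 6 for these 3 genes. Fam107a (1.98), the metallothioneins Mt2 (1.74 ± 0.26) and Mt1 (0.74), the mTORC1 inhibitor Ddit4 (1.29), the cell cycle inhibitor Cdkn1a (0.68) and the NF-kappa-B inhibitor Nfkbia (0.62) were higher as well, but the other probes of Cdkn1a (0.57 and 0.58) and Nfkbia (0.55) were not called. Hif3a was higher by 2.02, but its other probe (0.45) was not called. Further known targets did not pass, with 0.52 for the brightest probe of Per1 (its other probe, 0.65, was called), 0.44 for Sgk1, 0.37 for Klf9 and -0.02 for Dusp1. Among the 23 measured members 4 had a negative difference, the lowest of -0.64.

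Genes of the amino acid stress response, which shares Ddit4 with that list, had 3 higher and 0 lower of 14, namely Ddit4, the secreted hormone Stc2 (6.74 and 6.81 against 8.54 and 8.37, 1.68 ± 0.13) and the kinase-like inhibitor Trib3 (0.71), while Asns (0.46) and Atf4 (-0.02) were not called. Of the 12 calls named for glucocorticoid and amino acid stress genes, 7 ended without WT Ang-II array 1 (adjusted p from 0.0699 to 0.217), 7 without array 2 (0.0596 to 0.186), 4 without TG Ang-II array 1 (0.0749 to 0.122) and 4 without TG Ang-II array 2 (0.0736 to 0.151), and Fkbp5, Zbtb16, Hif3a, Fam107a and Stc2 held. With no detection filter Cdkn1a, Ddit4, Mt2, Nfkbia, Trib3 and Tsc22d3 ended (0.0622 to 0.104), and under median scaling Nfkbia and Trib3 did (0.0575 to 0.0720).

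Clock genes, a transcriptional loop that cycles over the day, had 4 members higher and 0 lower of 12, with a median of 0.45 and 11 positive differences. One of these, Npas2, passed the detection filter through the TG arrays only and could only be higher. With Npas2 at its bound the median was 0.42. Ciart, a repressor of the clock, read 5.02 and 5.68 in WT Ang-II against 7.27 and 7.30 in TG Ang-II (1.93 ± 0.23, adjusted p = 0.00890), with 6.54 and 6.98 in WT and TG saline. By its other probe, not detected in WT Ang-II, Ciart was at least 1.86-fold higher. The nuclear receptor Nr1d1 (0.99), the output factor Dbp (0.82) and Npas2 (at least 1.38-fold), a partner of Arntl, were higher, and Arntl itself (-0.22) was not called. The promoter of Ciart (chr3:95882179-95882478, minus strand, GRCm38.p6, from RefSeq) is shown because it holds 3 copies of the E-box CACGTG, the element that CLOCK and ARNTL bind, in capitals.
Ciart: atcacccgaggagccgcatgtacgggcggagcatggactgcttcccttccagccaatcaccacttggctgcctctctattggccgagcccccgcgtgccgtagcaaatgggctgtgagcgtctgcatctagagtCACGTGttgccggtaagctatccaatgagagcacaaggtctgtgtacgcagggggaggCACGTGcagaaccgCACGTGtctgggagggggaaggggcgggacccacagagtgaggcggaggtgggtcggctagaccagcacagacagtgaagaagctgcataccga
The E-box reads the same on both strands. It was found in the promoters of 1 of the 4 members that were higher and of 2 of 6 not called with an entry (Per1 and Tef). Of all genes with an entry, 8.09% had it in any of their promoters. Npas2, Nr1d1 and Dbp lost their calls without WT Ang-II array 1 (adjusted p from 0.0728 to 0.126) and 2 of them without array 2 (0.0665 to 0.0963). Dbp also lost its call without TG Ang-II array 1 (0.0539) or TG Ang-II array 2 (0.0596) and against a fold of 1.2 (0.0570), and Ciart held.

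Of 27 measured cell division genes 9 were lower and 1 higher in TG Ang-II, against 2.84% and 3.39% of all genes. The list median was -0.60, which held with undetected members at their bound. Of the 9, Tk1 and Aurkb passed the detection filter through the WT arrays only and could only be lower. The summed signal of the list did not fall with its median. It was 15500 and 16136 in WT Ang-II, 16448 and 15681 in TG Ang-II, 12027 in WT saline and 13764 in TG saline. Plk1, a mitotic kinase, read 7.40 and 7.46 in WT Ang-II against 5.83 and 5.74 in TG Ang-II, a 3.13-fold difference (-1.64 ± 0.12, adjusted p = 0.00206), with 5.75 and 5.27 in WT and TG saline. The centromere histone Cenpa read 10.13 and 10.19 against 9.32 and 9.07 (-0.96 ± 0.14), with 8.15 and 8.06 in saline, so that TG Ang-II lay between saline and WT Ang-II. Thymidine kinase (Tk1) was at least 2.24-fold lower, and topoisomerase 2 alpha (Top2a, -0.90) and the spindle protein Nusap1 (-0.90) were lower. Outside the list, the mitotic kinase Pbk was lower too (8.26 and 8.35 against 7.02 and 6.76, -1.42 ± 0.14). Replication genes were not called, with -0.35 for Mcm5, -0.28 for Mcm2 and 0.17 for Pcna. The member that was higher was Cdkn1a, the p21 inhibitor of cyclin-dependent kinases, whereas Cdkn2b, the p15 inhibitor, was lower (9.54 and 9.46 against 7.83 and 7.98, -1.59 ± 0.13). The promoter of Plk1 (chr7:122159185-122159484, plus strand, GRCm38.p6, from RefSeq) is shown with its cell cycle genes homology region, TTTGAA, an element near the start of many mitotic genes, in capitals.
Plk1: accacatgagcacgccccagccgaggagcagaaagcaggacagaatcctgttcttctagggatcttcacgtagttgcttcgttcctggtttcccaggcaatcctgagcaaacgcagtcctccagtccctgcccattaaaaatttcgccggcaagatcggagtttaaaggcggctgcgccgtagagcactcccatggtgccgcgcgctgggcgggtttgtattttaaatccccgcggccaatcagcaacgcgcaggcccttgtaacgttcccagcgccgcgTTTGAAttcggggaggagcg
TTTGAA, searched on both strands, was found in 6 of 8 members that were lower and have a promoter entry (Bub1b, Cdc20, Cenpa, Plk1, Prc1 and Top2a). It was found in 5 of 12 not called, not in Cdkn1a, and in 20.2% of all genes with an entry. Of the 7 calls checked (Plk1, Tk1, Cenpa, Nusap1, Top2a, Pbk and Cdkn2b), 5 ended without WT Ang-II array 1 (adjusted p from 0.0556 to 0.129), 4 without array 2 (0.0582 to 0.183), 3 without TG Ang-II array 1 (up to 0.116) and 1 without TG Ang-II array 2 (0.0529), and Plk1 and Cdkn2b held. With no detection filter Cenpa, Nusap1, Tk1 and Top2a ended (0.0519 to 0.132).

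Among the largest rises outside the tissue lists, several parted the genotypes in saline as well. Cap1, an actin-cycling protein, read 8.91 and 8.23 in WT Ang-II against 12.34 and 12.40 in TG Ang-II (3.80 ± 0.23, adjusted p = 0.00115), and 7.39 against 12.49 in WT and TG saline. Gdpd3, a lysophospholipase D, differed by 3.26 ± 0.16, and read 5.44 against 8.18 in saline. Hal, histidine ammonia-lyase, was at least 3.65-fold higher, and Adcy1, an adenylyl cyclase, at least 2.66-fold. Paip1, a partner of poly(A)-binding protein (2.46), and Timmdc1, a complex I assembly factor (2.11), were higher too, with saline levels of 4.96 against 7.17 and 7.01 against 8.77 in WT and TG. Others read alike on the saline arrays. Tbc1d1, a Rab regulator of glucose uptake, read 6.33 and 6.15 against 8.93 and 8.81 (2.63 ± 0.13, at least 1.83-fold by its other probe), with 8.79 and 9.23 in WT and TG saline, and Nudt6 read 5.13 and 5.67 against 7.56 and 7.49, with 7.74 and 7.48. For these WT Ang-II was the low group. For Angptl7, a secreted angiopoietin-like protein, TG Ang-II was the high group, with 10.27 and 10.51 against 12.48 and 12.27 (1.99 ± 0.15, other probe 1.96) and 10.83 and 10.59 in saline. Arl14epl (2.20), the centrin Cetn4 (1.88) and the claudin Cldn11 (1.83) completed the rises. Of these 12 calls only that of Cetn4 ended, without WT Ang-II array 2 (0.0751) or with no detection filter (0.0822).

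The largest falls outside the tissue lists and the groups above included Irs3, an insulin receptor substrate that rodents express in fat, which read 8.29 and 8.19 in WT Ang-II against 6.01 and 5.92 in TG Ang-II (-2.27 ± 0.13, adjusted p = 0.000731), with 5.67 and 6.10 in WT and TG saline. The white fat sum moved with Irs3, and its part was not tested. Gpr176, an orphan receptor, read 9.39 and 9.44 against 7.41 and 7.81 (-1.81 ± 0.17), with 7.87 and 6.85 in saline, and Ldb2, a LIM domain-binding factor, differed by -1.65 and by -1.35 on its other probe. Both stood highest in WT Ang-II. The neural adhesion molecule Cntn6 (-1.69), the major urinary protein Mup6 (-1.69) and Plaat1, a phospholipase (-1.46), were lower, and in saline they also read lower in TG, with 7.69 against 6.41, 7.22 against 5.09 and 7.65 against 6.71. Apol11b (-1.70), Pbp2 (-1.51) and Tmem79 (-1.42) made up the rest. Calls on Mup6, Apol11b and Pbp2 ended without WT Ang-II array 1 (adjusted p from 0.0796 to 0.0954), and these and Tmem79 without array 2 (0.0547 to 0.0941), and Apol11b and Pbp2 ended with no detection filter (0.0547 to 0.0634).

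Differences that rest on 1 probe sequence are listed apart here, but were not taken out of the counts above. By rule these were called probes that differed by at least 1 where another kept probe of the gene differed by under 0.5 or the other way (61 probes), or by at least 2 with the lower group not detected and no second kept probe (28 probes, of which 12 belong to tissue list genes). Of the 89, 52 were higher and 37 lower in TG. Sspn, sarcospan of the dystrophin complex, was not detected in WT Ang-II (4.39 and 4.43) but read 12.18 and 12.42 in TG Ang-II and 11.97 and 12.43 in WT and TG saline, at least 106-fold higher. Of other dystrophin complex members, Dtna was called higher by its brightest probe only (0.77, adjusted p = 0.0384). Sgca (0.34), Sgcd (-0.17) and Dag1 (-0.28) were not called. Me1 had the same form, at 4.57 and 4.60 against 8.78 and 8.95, with 9.31 and 9.09 in saline, at least 9.86-fold higher. For both, the WT Ang-II arrays alone were at background. One of 3 Nnmt probes differed by 4.51, while the others differed by 0.73 and 0.23.

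Other single probes split by genotype under both infusions. Eif2s3y, a Y-linked translation factor, was not detected in WT saline (4.69) or WT Ang-II (4.59 and 5.11) and read 10.89 in TG saline and 10.68 and 10.83 in TG Ang-II, at least 36.6-fold higher. Its second probe was not detected on any array, the other Y-linked genes Kdm5d (-0.64, adjusted p = 0.0748) and Uty (-0.32, adjusted p = 0.470) were not called, and none of 4 Xist probes was detected. Rbm45 (at least 4.85-fold higher under Ang-II) read 4.50 in WT saline and 8.04 in TG saline. Cuedc1 (at least 5.23-fold), Ifi202b (not detected in WT Ang-II) and Cfi (at least 3.45-fold) read 5.08, 4.95 and 4.75 in WT saline and 7.31, 6.28 and 6.06 in TG saline. Rbm45, Cuedc1, Ifi202b and Cfi were singled out after their values were seen. The calls on Sspn, Me1, Eif2s3y and Rbm45 held with each Ang-II array left out.

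**Figure D5:**
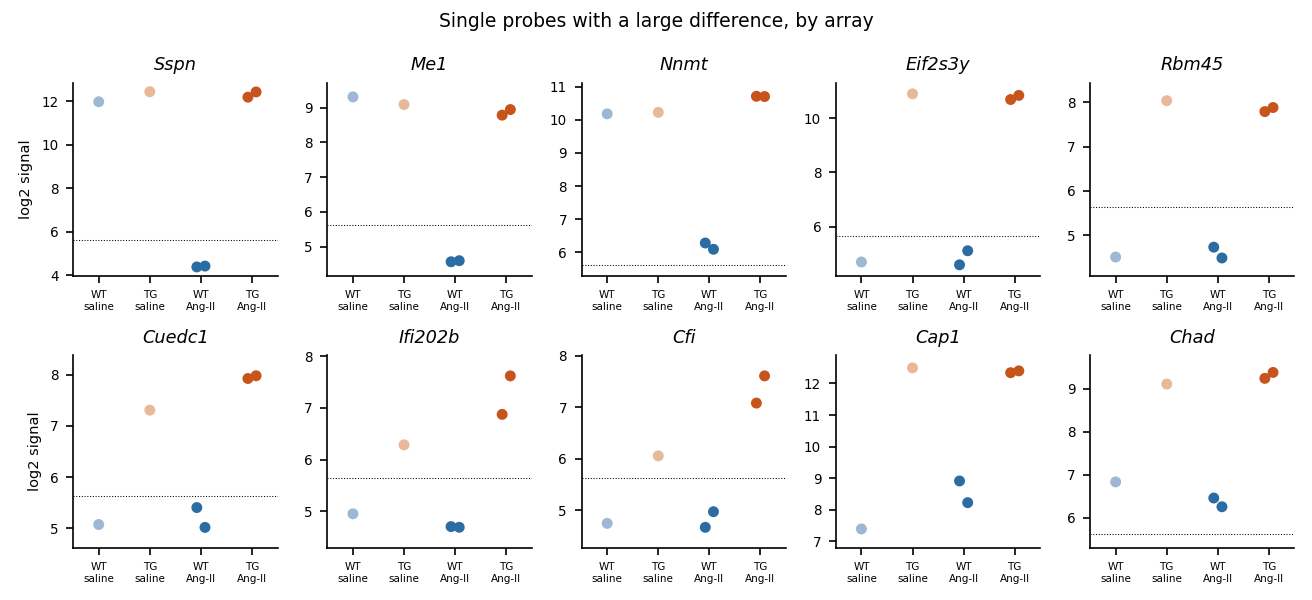
Normalized log2 signal of 8 single probes that part the Ang-II groups, and of Cap1 and Chad, with 1 point per array, groups on the horizontal axis and the mean of the arrays' lowest detected values (5.63) as a dotted line. Sspn, Me1 and Nnmt are low on the WT Ang-II arrays only, while the other probes part TG from WT under both infusions.

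How far the genotype difference under Ang-II was already there in saline could be read only from 1 array per genotype. Of the 597 genes called under Ang-II, 366 had a saline difference of the same sign, 70 had one of at least 1 in the same direction and 26 one of at least 1 in the opposite direction, while 334 had a saline difference under 0.5 in size. For heart muscle genes the median saline difference was -0.24 against 3.18 under Ang-II, for white fat 0.68 against -0.70, and for red cells 0.83 against -0.89. These saline values have no replicate and were not tested. The same counts were not taken over all genes measured, so they do not show whether called genes differ from the rest in this.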

How the data were processed

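Total RNA of mouse thoracic aorta was measured on 6 Illumina BeadChips. The deposited text table gives, per the file headers, an average probe intensity, a bead standard error (a signal value never below 0), a bead count and a detection p-value for each probe and array, before normalization. A second deposited table by the authors gives log2 values. The neqc function of limma (background correction with negative control levels inferred from the detection p-values, offset 16, quantile normalization, log2) applied here to the intensities gave the same log2 values to within 4.99957e-09. GenomeStudio 2011.1 and limma 3.22.1 are named in the submitters' processing notes, without their roles.

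Here limma 3.58.1 in R 4.3.3 fitted group means to the log2 values (lmFit, eBayes), tested TG against WT Ang-II over 16127 kept probes and adjusted p by Benjamini-Hochberg, with a threshold of 0.05. Precision is limited by having 2 arrays per group. Of all probes, 34885 have 1 gene symbol in the platform annotation, 18 several and 10378 none, and 34807 were found in the RefSeq table (GRCm38.p6) by gene identifier. Named genes were the 20 largest called rises and 20 largest falls off the tissue lists, the 5 largest called members of each list (or the 2 largest differences where none was called), the 8 largest single-probe differences and a few genes of the design, with further single probes off the tissue lists and 3 further lists added after values were seen. Members and lists were chosen with earlier results of these data known. Summed signals are sums of linear normalized signal over all genes of a list that have a probe. Where no probe of a gene was kept, its brightest probe was used. The fit was tested on simulated data. Alternatives changed the background correction, offset, normalization, detection filter, variance prior, test, probe summary and arrays used. Numbered Ang-II arrays deviated together only weakly (see the replicate block in the closing section).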

Additional observations from a re-analysis of the deposited data

How the results depend on the processing

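No named call changed direction under the alternatives that were run, but many of them could not change it. Leaving out 1 array cannot reverse a gene whose TG arrays both lie on the same side of both WT arrays. Changing the detection filter, the variance prior, the test or the replicate block leaves the fitted difference as it is. List medians near 0, such as those of the CaMKII, RGS, TGF-beta and elastic fibre lists, changed sign in some alternatives. As reported there were 517 probes higher in TG and 511 probes lower in TG, 325 genes higher in TG and 272 genes lower in TG. The 622 genes of vessel wall and process lists counted 43 in the wall set higher and 45 in the wall set lower, beside 37 tissue make-up genes higher and 21 tissue make-up genes lower. Without background correction 855 probes were higher and 920 lower, with 561 and 522 genes and 74 and 82 wall genes. An offset of 50 gave 774 probes and 422 genes lower. Median scaling gave 1175 probes, 603 genes and 75 wall genes lower. With no detection filter 269 probes were higher and 214 lower, with 175 and 121 genes, 15 and 23 wall genes and 13 tissue list genes lower, over 45281 probes tested. Requiring detection on all 4 arrays left 20 tissue list genes higher, since it removes genes undetected in WT. A trended robust prior gave 906 and 968 probes, 597 and 562 genes, and 80 and 90 wall genes. Testing against a fold of 1.2 left 288 and 229 probes, 194 and 124 genes, 17 and 22 wall genes and 12 tissue list genes lower. The cause of the other shifts was not tested.

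Leaving out 1 array left 153 to 342 probes higher and 63 to 356 lower, 105 to 224 genes higher and 34 to 183 lower, 9 to 21 wall genes higher and 9 to 32 lower, and 3 to 16 tissue list genes lower, with the lone array assumed to vary like the others. Of 153 named calls 60 held in every setting run and 86 in all but the leave-outs. Calls were lost most often without WT Ang-II array 1 (88) or 2 (87), with no detection filter (61) and against a fold of 1.2 (46). With the replicate number as a block 1096 probes were called, 528 higher and 568 lower, and 145 of the 153 calls held. The correlation of deviations by number was 0.125 over 2 pairs, which does not show that the numbers pair the samples. A chip block was not run, because the file headers name no chips. Probes not above background limit the low group of bounded folds.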
